A study of Mus musculus with 36 samples.

Results

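Enteric glial cells (EGCs) were stimulated with the medium of healthy colon for 12 h (H-CM), and their RNA was compared with that of unstimulated EGCs of the same time point. The comparison rests on 8 of the 36 libraries of the series, 4 H-CM libraries of 12 h and 4 unstimulated libraries of 12 h, taken by the condition and time in their titles, and it was made over all 12156 genes that passed the filter on low counts. All EGCs were wild-type mouse cells grown as neurospheres from embryonic intestine, and no group carried an allele or agent beyond its medium. H-CM was made by digesting healthy mouse colons to single cells and culturing these overnight, so it held what a mixture of colon cells released. The unstimulated EGCs had no conditioned medium, so that factors of the colon and the conditioning of a medium as such cannot be told apart. The third group of 12 h, EGCs in medium from digested MC38 colon tumors (TME-CM, 4 libraries), entered the same model and is used here only for comparison. Libraries were read from the 3′ end of each transcript (QuantSeq), so that counts are not scaled by transcript length. The sources used here do not say whether the 4 replicates of a group came from separate cultures or animals, so that p-values measure the spread between these libraries, which may be technical. In bulk RNA, more cells of a type and more RNA per cell cannot be told apart.

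Cells answer type I interferons through a receptor pair, IFNAR1 and IFNAR2, that activates transcription factors, STAT2 and IRF9 among them, which switch on interferon-stimulated genes from promoter elements with repeated GAAA blocks. Many of the encoded proteins sense or block viruses, and some, such as USP18, dampen the receptor again. NF-kB, which acts downstream of Toll-like and IL-1 receptors, drives chemokine genes and its own inhibitor, Nfkbia. Enteric glia express receptors for many such signals and are known to take on a reactive, chemokine-producing state in the inflamed gut.

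The H-CM libraries of 12 h held 3860879 to 5595038 counts and the unstimulated libraries 2005239 to 5961933 (exact two-sided permutation test, p = 0.286, n = 4 and 4). The share of counts on Yam1, an entry of the table that took a large part of every library, was 14.9% to 32.6% in H-CM and 12.6% to 39.9% in unstimulated libraries (exact permutation p = 0.514). Mitochondrial transcripts took 3.10% to 6.88% in H-CM and 1.93% to 3.18% in unstimulated libraries (exact permutation p = 0.0571, where 0.0286 is the smallest p that 4 against 4 can give), with H-CM replicate 3 apart from the other H-CM libraries. Glial genes were present in both groups. Sox10, the transcription factor of the neural crest and glia, was at 65.8 ± 5.99 CPM in unstimulated and 71.1 ± 8.53 CPM in H-CM EGCs (CPM, counts scaled to a common library size with TMM factors, mean ± SD, n = 4). S100b stood at 70.4 ± 14.1 and 72.1 ± 25.4 CPM in the same order. Gfap, another glial marker, was at the detection limit in part of the libraries. The genes of an enteric glial signature summed to 1278 to 1499 CPM in the unstimulated libraries. Those of a glial lineage list summed to 8045 to 9707 CPM there. Smooth muscle and fibroblast markers were also abundant, at 7053 to 7620 and 6031 to 7231 CPM over each list in the unstimulated libraries. The share of glia in the cultures cannot be read from these values. By its own markers, the study describes such cultures as rich in glia, with little expression from other cell types.

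Few genes passed the test between H-CM and unstimulated EGCs at 12 h, and nearly all of these were higher in H-CM. Of 12156 genes tested, 49 (0.403%) passed an adjusted p of 0.05, 43 of them higher (0.354%) and 6 lower (0.0494%) in H-CM than in unstimulated EGCs, and 688 genes had an unadjusted p under 0.05. The median difference of all genes tested was -8.91e-05 on the log2 scale. The genes that rose had a median log2 fold change of 2.60, and 28 of them rose by over 2 on that scale. The genes that fell had a median of -1.17. In each of the 49 genes the 4 H-CM libraries lay entirely on one side of the 4 unstimulated libraries, as in 479 of all genes tested (3.94%). By what their products are known to do, grouped after the calls were seen, 27 of the 49 are interferon-induced genes, 9 are chemokines or inflammatory genes, 2 belong to the oxidative stress response, 5 are other genes that rose and 6 fell.

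**Figure D1:**
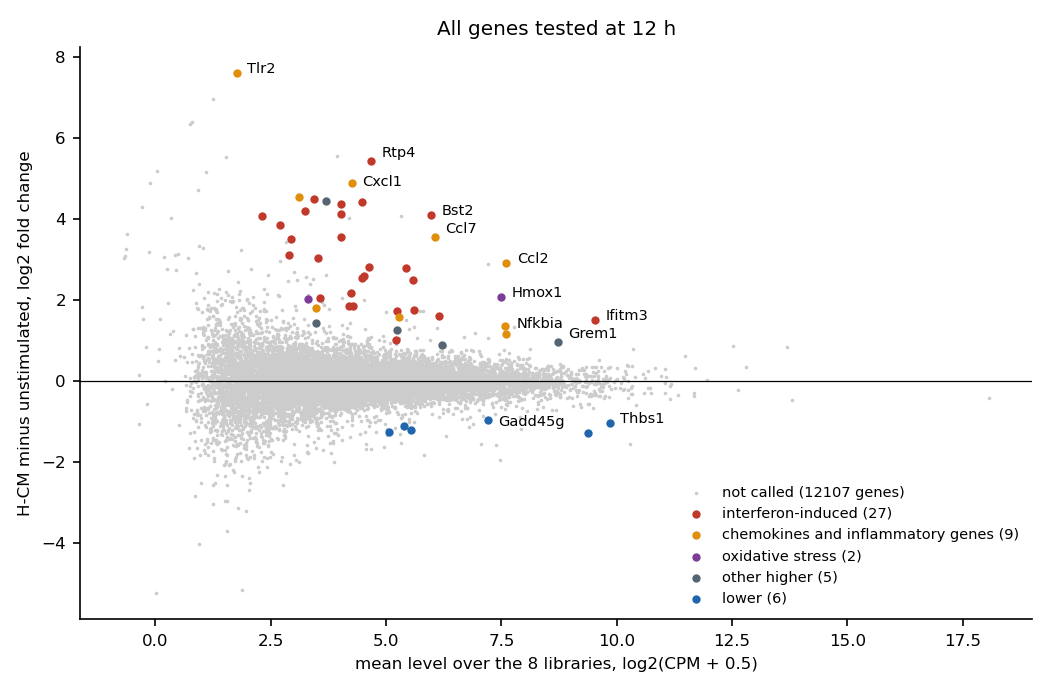
Difference between H-CM and unstimulated EGCs at 12 h (vertical axis, log2 fold change) against mean level over the 8 libraries (horizontal axis, log2 of CPM + 0.5) for the 12156 genes tested. Grey points are genes that were not called and colored points are the 49 called genes by group, most of them red (27 interferon-induced genes) and above the line of no difference. The height of Tlr2, with 0 counts in every unstimulated library, depends on the model's handling of zeros.

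Interferon-stimulated genes formed the largest group of the response. Of a list of 33 type I interferon-stimulated genes, 29 were tested, 16 rose and none fell, and the list's median log2 fold change was 2.51 beside -8.91e-05 over all genes. Their summed level was 543.5 to 604.9 CPM in the unstimulated libraries. In H-CM it was 3433 CPM in replicate 1, 1681 in replicate 2, 1993 in replicate 3 and 1140 in replicate 4. The 4 H-CM libraries all lay above the unstimulated ones and differed widely among themselves.

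Transcription factors of the interferon response rose. Irf9 (chr14:55603571-55610030), which binds the interferon element, was at 14.7, 8.56, 19.4 and 13.3 CPM in unstimulated replicates 1 to 4 and at 123, 80.3, 64.2 and 54.2 CPM in H-CM replicates 1 to 4 (log2 fold change 2.50, 95% confidence interval 1.92 to 3.09, adjusted p = 0.000113, edgeR's quasi-likelihood test). Stat2, which acts with it, was at 2.10, 5.13, 9.29 and 7.36 CPM and at 72.1, 34.8, 24.2 and 24.2 CPM in the same order (2.60, 1.77 to 3.42, adjusted p = 0.00250). The groups did not overlap in either gene, and H-CM replicate 1 was highest in both.

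The receptors of interferon did not pass the test. Ifnar1 was at 21.1 ± 3.04 CPM in unstimulated and 19.7 ± 3.93 CPM in H-CM EGCs (log2 difference -0.10, 95% confidence interval -0.71 to 0.51, adjusted p = 0.997). Ifnar2 was at 24.6 ± 4.51 and 32.0 ± 10.2 CPM (0.39, -0.19 to 0.97, adjusted p = 0.997). The genes of the receptor of interferon-gamma, Ifngr1 and Ifngr2, differed by -0.05 and -0.01 (adjusted p = 0.997 and 0.999). Transcripts of the interferons themselves were not detectable at this depth. Of 22 interferon genes in the table, 21 had 0 counts in all 8 libraries, Ifnb1 and Ifng among them, and Ifnz had 2 counts in the unstimulated libraries. A count of 0 allows up to 0.503 to 1.50 CPM in the unstimulated and 0.536 to 0.777 CPM in the H-CM libraries (3 counts per library, counting error only).

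Among the effectors, Rtp4, which encodes an interferon-induced chaperone with antiviral activity, had the largest change of the interferon-induced group. It was at 0.526, 0.856, 0.273 and 1.94 CPM in the unstimulated libraries and at 121, 39.4, 23.1 and 14.8 CPM in H-CM (log2 fold change 5.42, 3.55 to 7.29, adjusted p = 0.0171). Isg15, a ubiquitin-like protein that is joined to other proteins after interferon, was at 2.10, 1.71, 1.64 and 0.833 CPM in unstimulated and at 21.7, 24.0, 60.6 and 12.6 CPM in H-CM libraries (4.37, 3.04 to 5.70, adjusted p = 0.00277). Here H-CM replicate 3, not replicate 1, was highest. Usp18, which removes ISG15 from proteins and dampens the interferon receptor, was at 0.526, 1.28, 1.64 and 2.36 CPM and at 72.6, 22.8, 13.1 and 11.7 CPM (4.13, 2.80 to 5.45, adjusted p = 0.00389).

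Bst2 encodes tetherin, which holds budding virions at the cell surface. It was at 2.63, 3.42, 8.20 and 10.4 CPM in unstimulated and at 135, 61.5, 244 and 33.5 CPM in H-CM libraries (log2 fold change 4.10, 2.70 to 5.51, adjusted p = 0.0171). Ifi44 was at 1.58, 0, 1.64 and 3.19 CPM and at 93.2, 31.7, 27.6 and 16.2 CPM (4.41, 2.85 to 5.97, adjusted p = 0.0171). Xaf1, a pro-apoptotic interferon-induced gene, was at 0.526, 0, 1.09 and 0.278 CPM and at 15.4, 6.99, 7.84 and 3.84 CPM (4.06, 2.69 to 5.44, adjusted p = 0.00370). Ifi44 and Xaf1 rested on few reads in unstimulated EGCs, and in all 3 genes every H-CM library lay above every unstimulated one. Oasl2, of the oligoadenylate synthetase family, was at 5.26, 2.14, 2.19 and 1.39 CPM and at 67.9, 18.8, 19.7 and 9.60 CPM (3.56, 2.23 to 4.90, adjusted p = 0.0171). Rnf213, a large ubiquitin ligase, was at 6.84, 5.56, 6.56 and 5.27 CPM and at 89.7, 27.6, 25.4 and 28.4 CPM (2.82, 1.93 to 3.71, adjusted p = 0.00257).

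The interferon-induced GTPase Gbp3 was at 1.05, 0.428, 0.547 and 1.25 CPM in unstimulated and at 27.5, 19.9, 14.5 and 6.65 CPM in H-CM libraries (log2 fold change 4.20, 3.16 to 5.25, adjusted p = 0.000210). Gbp3 was the 1 gene called of 15 tested in a list of interferon-gamma-induced GTPases and factors. The list's median was 1.72, or 1.44 with Gbp4, at 0 in every unstimulated library, set to its lower bound. Slfn2, a Schlafen family member, was at 3.15, 3.85, 1.09 and 1.94 CPM and at 34.4, 17.7, 14.5 and 11.2 CPM (3.05, 2.18 to 3.92, adjusted p = 0.000892). Gbp3, Slfn2 and 4 further genes of the group belong to families of close copies, and since reads that mapped to multiple loci were discarded, their counts are less certain. The further genes were I830012O16Rik (now Ifit3b) with a log2 fold change of 4.49, Phf11d with 3.85, Ifi27l2a with 3.50 and Trim30d with 3.10.

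In single libraries, I830012O16Rik was at 0, 0.856, 0.273 and 1.53 CPM in unstimulated and at 49.2, 11.8, 13.3 and 6.06 CPM in H-CM EGCs. Phf11d was at 1.58, 0, 0 and 1.25 CPM and at 18.2, 8.60, 11.4 and 6.94 CPM. Ifi27l2a was at 1.05, 0, 0 and 2.64 CPM and at 18.2, 6.45, 22.8 and 6.35 CPM. These low unstimulated levels rest on few reads, 14, 12 and 21 counts over the 4 libraries in that order. Trim30d was at 1.58, 2.57, 0 and 1.67 CPM in unstimulated and at 25.6, 8.96, 9.03 and 5.76 CPM in H-CM libraries.

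The sensors of viral RNA rose by less. Ifih1 (MDA5) went from 4.25 ± 1.45 to 18.3 ± 8.24 CPM (log2 fold change 2.04, adjusted p = 0.0122). Ddx58 (RIG-I) went from 22.2 ± 4.37 to 74.7 ± 43.5 CPM (1.74, adjusted p = 0.0127). Eif2ak2 (PKR), the kinase that halts translation on double-stranded RNA, went from 8.03 ± 3.54 to 29.7 ± 6.46 CPM (1.86, adjusted p = 0.00546). Trim25, the ubiquitin ligase that acts on RIG-I, went from 16.8 ± 6.87 to 57.2 ± 21 CPM (1.73, adjusted p = 0.00628). Zc3hav1, an antiviral zinc finger protein, went from 24.1 ± 2.59 to 49.3 ± 12.8 CPM (1.02, adjusted p = 0.0420). The partners Parp9 (1.84, adjusted p = 0.0420) and Dtx3l (2.17, adjusted p = 0.0171) also rose, and share 458 exon bases on opposite strands, so that without a stated strand setting their reads cannot be fully told apart. Ifitm3, which blocks viral entry, had the highest level of the group, 382 ± 38.6 CPM in unstimulated and 1088 ± 496 CPM in H-CM EGCs (1.51, adjusted p = 0.00250). Lgals3bp (1.61, adjusted p = 0.0190) and Ifi203 (2.54, adjusted p = 0.0451) completed the group.

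Some well-known interferon-stimulated genes did not pass the test. Ifit1 stood at 1.81 ± 1.07 CPM in unstimulated and 33.8 ± 32.2 CPM in H-CM EGCs, a log2 difference of 4.01 with an adjusted p of 0.0877. Ifit3 stood at 4.54 ± 5.21 and 74.7 ± 59.6 CPM (4.08, adjusted p = 0.104). Irf7, the factor that amplifies interferon production, stood at 2.15 ± 2.51 and 13.6 ± 11.3 CPM (2.50, adjusted p = 0.216). In all 3 the SD in H-CM was large beside the mean. The same held for some called genes, such as Rtp4 (49.5 ± 48.6 CPM) and Usp18 (30.0 ± 28.8 CPM). Ifit2 (0.60, adjusted p = 0.997) and Rsad2 (1.31, adjusted p = 0.956) had smaller differences. None of 17 tested genes of MHC class I presentation was called at 12 h, with a median of 0.20. Tapbp, a peptide-loading factor, had the smallest p among them, with a difference of 1.07 (adjusted p = 0.308).

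**Figure D2:**
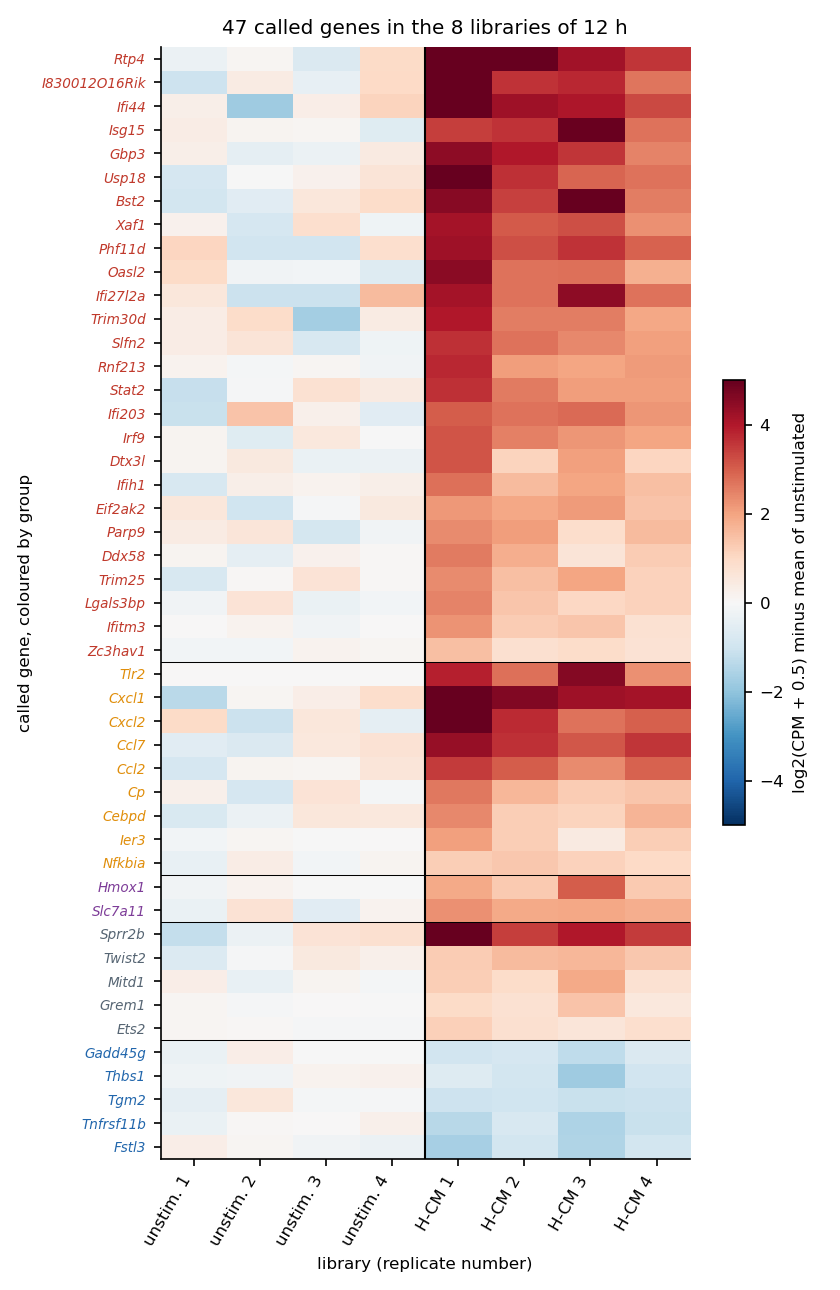
Level of 47 of the 49 called genes (rows, names colored by group) in the 8 libraries of 12 h (columns), as log2(CPM + 0.5) minus the mean of the 4 unstimulated libraries, from blue (lower) to red (higher), with the colors ending at 5. H-CM replicate 1 has the highest value in 33 of the 42 genes shown that rose, and H-CM replicate 4 the lowest in 29.

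Promoter sequences are shown for genes of the interferon list to let the interferon element be seen in place. RefSeq promoters (GRCm38.p6, 250 bases before to 50 bases after the start of a transcript) were found for 36 of the 49 called genes. They were searched for GAAANNGAA, the core of the interferon response element, on both strands (TTCNNTTTC on the other), counting overlapping matches. The element was held by 12 of 22 promoters of the interferon-induced genes (54.5%) and by 8.57% of the 27025 genes in the promoter table. The 4 sequences are those with the smallest p among genes of this list that had a promoter and were in the 20 of the largest changes, and are printed 5′ to 3′ with matches in capitals, Isg15 at chr4:156200769-156201068 on the minus strand, Xaf1 at chr11:72301379-72301678 on the plus strand, Bst2 at chr8:71537423-71537722 on the minus strand and Ifi44 at chr3:151749861-151750160 on the minus strand.
Isg15: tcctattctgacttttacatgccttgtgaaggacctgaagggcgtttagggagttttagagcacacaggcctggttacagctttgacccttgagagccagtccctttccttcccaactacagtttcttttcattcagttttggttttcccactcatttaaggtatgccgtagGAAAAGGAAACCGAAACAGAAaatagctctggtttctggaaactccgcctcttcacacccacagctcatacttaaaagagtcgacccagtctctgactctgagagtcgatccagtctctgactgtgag
Xaf1: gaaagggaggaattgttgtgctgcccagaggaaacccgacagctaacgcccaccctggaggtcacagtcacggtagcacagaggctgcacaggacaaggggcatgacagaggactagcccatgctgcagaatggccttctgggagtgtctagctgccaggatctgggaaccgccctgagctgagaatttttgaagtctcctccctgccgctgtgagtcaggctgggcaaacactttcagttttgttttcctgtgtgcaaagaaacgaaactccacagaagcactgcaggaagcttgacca
Bst2: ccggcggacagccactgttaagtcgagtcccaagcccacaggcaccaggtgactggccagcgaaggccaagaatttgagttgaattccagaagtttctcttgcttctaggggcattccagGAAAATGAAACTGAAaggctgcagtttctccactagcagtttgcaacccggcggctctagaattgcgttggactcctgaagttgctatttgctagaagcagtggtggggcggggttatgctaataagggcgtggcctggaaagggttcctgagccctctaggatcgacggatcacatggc
Ifi44: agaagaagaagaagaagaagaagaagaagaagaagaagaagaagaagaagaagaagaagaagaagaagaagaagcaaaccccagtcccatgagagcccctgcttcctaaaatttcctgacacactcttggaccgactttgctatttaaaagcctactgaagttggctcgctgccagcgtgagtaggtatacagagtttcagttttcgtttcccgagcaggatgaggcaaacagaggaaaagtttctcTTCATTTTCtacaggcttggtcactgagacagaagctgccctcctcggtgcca
Isg15 held 3 overlapping matches, the nearest beginning 66 bases before the start, Bst2 held 2 overlapping matches with the nearest beginning 124 bases before the start, and Ifi44 held 1 match that begins 3 bases before the start and reaches across it. Xaf1 held none, nor did Oasl2, which says only that these letters are not in the window. I830012O16Rik held 3. A match of letters is a description and not a bound site. The other 3 elements were searched in the same way. TTCNNNGAA, the STAT element, was held by 3 of the 22 promoters (13.6%) and by 8.47% of all genes. TGANTCA, the AP-1 element, was held by 5 (22.7%) and by 7.93% of all. GGANNTTCC, an NF-kB element, was held by 2 (9.09%) and by 4.24% of all. In the chemokine and inflammatory group it was held by 4 of 6 promoters (66.7%), those of Cxcl1, Cxcl2, Nfkbia and Ier3. Both groups had been made by what the genes are known to do, so these shares describe the groups and are no test of a regulator.

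Chemokines were the second group that rose. Ccl7, which draws monocytes, had the smallest p of all genes. It was at 5.78, 5.13, 12.8 and 14.9 CPM in unstimulated and at 190, 114, 79.2 and 108 CPM in H-CM libraries (log2 fold change 3.56, 95% confidence interval 2.85 to 4.27, adjusted p = 3.40e-05). Ccl2 (chr11:82035571-82037453), whose gene lies next to Ccl7 (chr11:82045712-82047525) and which is the main ligand of CCR2 on monocytes, was at 23.1, 46.6, 44.8 and 65.0 CPM and at 484, 347, 217 and 325 CPM (2.91, 2.20 to 3.62, adjusted p = 0.000298). The lowest H-CM library thus held far more of either transcript than the highest unstimulated one.

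The neutrophil chemokines Cxcl1 (chr5:90891241-90893115) and Cxcl2 (chr5:90903871-90905938) were close to 0 without H-CM. Cxcl1 was at 0, 0.856, 1.09 and 1.80 CPM in unstimulated and at 69.0, 30.3, 23.3 and 22 CPM in H-CM libraries (log2 fold change 4.87, 3.73 to 6.02, adjusted p = 0.000298). Cxcl2 was at 1.58, 0, 1.09 and 0.278 CPM and at 33.6, 13.8, 6.42 and 7.98 CPM (4.55, 2.72 to 6.38, adjusted p = 0.0391). H-CM replicate 1 was again the highest for both. Of 9 CXC chemokines tested these were the 2 called, and of 10 CC chemokines Ccl2 and Ccl7 were. Cxcl5 differed by 5.55 but missed the threshold (adjusted p = 0.0531), with 79.8, 21.7, 5.47 and 9.60 CPM in H-CM replicates 1 to 4. Cxcl10, the interferon-induced ligand of CXCR3, was at 0.932 ± 0.423 and 12.3 ± 11.8 CPM (3.43, adjusted p = 0.341). Cxcl12 was at 133 and 132 CPM on average (-0.01, adjusted p = 0.999).

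Tlr2 (chr3:83836272-83841767), the receptor of bacterial lipoproteins, had 0 counts in all 4 unstimulated libraries and 102 counts over the H-CM libraries, at 6.88, 2.87, 11.4 and 1.92 CPM. Against 3 counts over the unstimulated group, the H-CM libraries together were 25.4-fold higher (adjusted p = 0.00250, edgeR's quasi-likelihood test). This bounds the count of 0 by counting error only and leaves out the spread in H-CM. At 24 h Tlr2 was at 1.16 CPM on average in unstimulated and 2.26 CPM in H-CM libraries. At 6 h it was at 2.63 and 3.34 CPM, means that include libraries of very low depth. Unstimulated EGCs thus held Tlr2 reads at those times. Nfkbia, the inhibitor that NF-kB induces against itself, was at 119 ± 27.0 CPM in unstimulated and 268 ± 24.9 CPM in H-CM EGCs (log2 fold change 1.16, 0.76 to 1.56, adjusted p = 0.00389). Its 4 H-CM libraries lay within 236 to 296 CPM, close to each other beside those of Rtp4 or Stat2. Ier3, an early response gene that modulates NF-kB, went from 107 ± 6.68 to 274 ± 127 CPM (1.35, adjusted p = 0.00993). Cebpd, a transcription factor of the acute phase, went from 18.7 ± 7.86 to 58.0 ± 26.2 CPM (1.58, adjusted p = 0.0171).

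Of 27 tested genes of a list of NF-kB targets and feedback genes, 3 rose (Tlr2, Nfkbia and Cebpd) and none fell, with a list median of 0.72. Of the rest, Nfkbiz differed by 1.09 (adjusted p = 0.104), Bcl3 by 1.75 (adjusted p = 0.122) and the adhesion molecule gene Icam1 by 2.41 (adjusted p = 0.102). Genes of the NF-kB subunits Rela and Nfkb1 differed by 0.10 and 0.49 (adjusted p = 0.997 for both). Of 13 acute-phase genes tested, 1 was called, Cp (ceruloplasmin, a copper-carrying ferroxidase), which went from 4.63 ± 2.09 to 16.7 ± 8.26 CPM (1.81, adjusted p = 0.0171). The list's median was 1.81, or 1.77 with genes at 0 in every library of 1 group set to their bound. Of its 13 differences, 12 were positive. Saa3 was at 34.6 ± 4.04 CPM in unstimulated EGCs and at 710, 171, 63.2 and 91.9 CPM in H-CM replicates 1 to 4 (2.89, adjusted p = 0.240). Saa3 did not overlap between the groups but varied over 10-fold within H-CM.

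Of 8 genes that the study names in its account of EGCs, for reactive or for homeostatic functions, Ccl2 and Cxcl1 rose, as above, and 6 were not called. Lcn2, an iron-scavenging acute-phase protein, was at 2.10, 5.13, 1.09 and 2.36 CPM in unstimulated and at 41.0, 9.32, 7.13 and 5.32 CPM in H-CM libraries (2.58, 1.02 to 4.13, adjusted p = 0.346). The outcome for Lcn2 depended on the method, with an adjusted p of 0.0272 in DESeq2's Wald test and 7.00e-16 in edgeR without the filter on low counts, and up to 0.739 in the other settings run. Il6 was at 1.02 ± 1.11 and 1.43 ± 1.84 CPM (0.47, -1.28 to 2.21, adjusted p = 0.997), a level of few reads at which no difference was detectable. Timp1, an inhibitor of metalloproteinases, was at 132 ± 13.1 and 128 ± 55.2 CPM (-0.05, -0.56 to 0.46, adjusted p = 0.997). Ntsr1 was at 31.8 ± 8.22 and 30.6 ± 11.9 CPM and Sparcl1 at 564 ± 93.1 and 547 ± 118 CPM, with adjusted p = 0.997 for both. Cxcl10, given above, likewise passed with DESeq2's Wald test (adjusted p = 0.00270) and in edgeR without the filter (4.98e-18), and without TME-CM replicate 1 of 12 h (0.0491), with up to 0.739 in the other settings run.

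**Figure D3:**
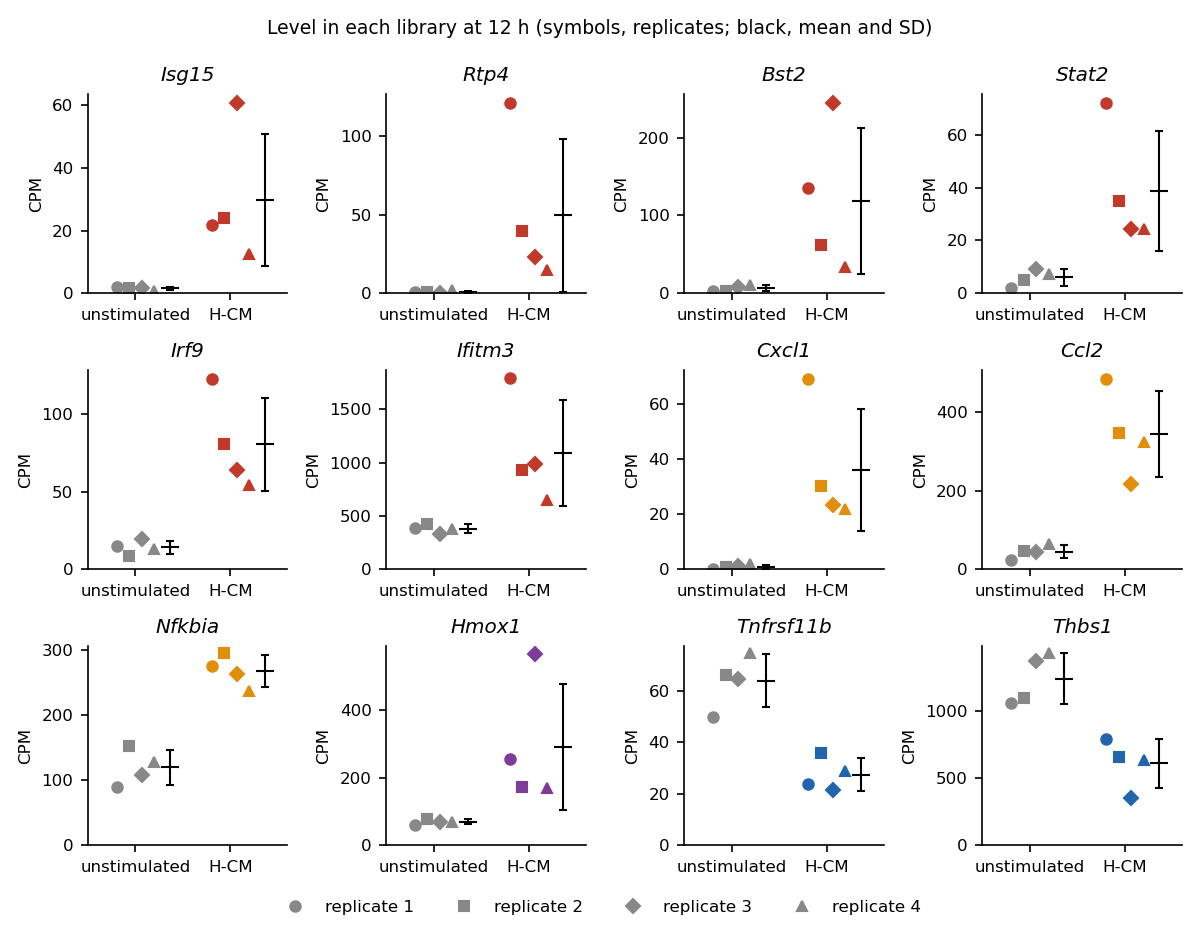
CPM of 12 called genes in each library of 12 h (gray, unstimulated; colored, H-CM; symbols mark the replicate number), with the mean and SD of each group in black. The genes drawn were chosen after their values were seen. In each panel the 4 H-CM libraries lie on one side of the 4 unstimulated ones, and the spread in H-CM is wide for Rtp4 (14.8 to 121 CPM) and narrow for Nfkbia (236 to 296 CPM).

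Of the genes of the oxidative stress response, Hmox1 and Slc7a11 rose. Hmox1 (chr8:75093621-75100589), heme oxygenase, was at 61.0, 78.3, 68.3 and 68.8 CPM in unstimulated and at 255, 171, 565 and 170 CPM in H-CM libraries (log2 fold change 2.07, 1.43 to 2.71, adjusted p = 0.00250). Its highest library, H-CM replicate 3, is the one with 6.88% mitochondrial counts, and the part of this in the result was not tested. Slc7a11, the cystine transporter, went from 3.67 ± 1.70 to 15.1 ± 2.27 CPM (2.04, adjusted p = 0.0117). These were 2 of 13 tested NRF2 targets, whose median was 0.32. Nqo1, another target, differed by 0.32 (adjusted p = 0.997) and Gclm by 0.75 (adjusted p = 0.290). None of 16 genes of the integrated stress response and none of 9 of metal handling was called.

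Another 5 genes rose. Sprr2b, a small proline-rich protein of a family with close copies, was at 0, 0.428, 1.37 and 1.53 CPM in unstimulated and at 54.2, 12.0, 18.1 and 12.6 CPM in H-CM libraries (log2 fold change 4.44, 3.07 to 5.82, adjusted p = 0.00370). Grem1, an extracellular antagonist of BMPs, went from 287 ± 14.5 to 560 ± 157 CPM (0.96, adjusted p = 0.0247) and was the 1 gene called of 11 tested in a list of BMP signaling, in which Bmp4 differed by -0.89 (adjusted p = 0.322) and the antagonist Nog by 0.03. The transcription factors Twist2 (1.44, adjusted p = 0.0364) and Ets2 (0.88, adjusted p = 0.0420) and the midbody protein gene Mitd1 (1.26, adjusted p = 0.0452) complete the set. Twist2 shares 1477 exon bases with an annotated antisense gene.

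Of the 6 genes that fell, the 5 described here encode secreted or matrix proteins and regulators of growth. Thbs1, a matrix protein that activates latent TGF-beta, was at 1057, 1093, 1372 and 1428 CPM in unstimulated and at 790, 655, 353 and 636 CPM in H-CM libraries (log2 fold change -1.02, -1.46 to -0.59, adjusted p = 0.0238). It was abundant and did not overlap between the groups. Tgm2, tissue transglutaminase, was at 40.5, 81.7, 51.9 and 53.2 CPM in unstimulated and at 26.4, 27.2, 25.4 and 25.7 CPM in H-CM libraries (-1.12, -1.63 to -0.61, adjusted p = 0.0456), where its 4 values were nearly equal. Tnfrsf11b, the decoy receptor osteoprotegerin, was at 49.95, 66.3, 64.8 and 74.9 CPM and at 23.9, 35.8, 21.4 and 28.8 CPM (-1.22, -1.70 to -0.74, adjusted p = 0.0171). Fstl3, which binds activin, was at 58.4, 49.6, 41.0 and 37.5 CPM and at 14.0, 24.0, 15.7 and 23.8 CPM (-1.25, -1.82 to -0.68, adjusted p = 0.0452), and shares 1157 exon bases with Prss57 on the opposite strand. Gadd45g, a growth arrest gene, was at 155, 244, 190 and 192 CPM and at 99.8, 106, 79.9 and 115 CPM (-0.96, -1.36 to -0.56, adjusted p = 0.0235).

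Of 16 tested targets of TGF-beta and YAP, 2 fell, Thbs1 among them, none rose, and the list's median was -0.22. Amotl2, a YAP target, missed the threshold at -0.80 (adjusted p = 0.0526), and Ankrd1 was at 339 and 149 CPM on average (-1.18, adjusted p = 0.686). The summed level of the list was 7273 to 9931 CPM in unstimulated and 4567 to 6189 CPM in H-CM libraries. Smooth muscle markers had lower sums beside it. None of the 11 was called at 12 h, but only 1 of them had a positive difference, and the median was -0.51. Their summed level was 7053 to 7620 CPM in unstimulated and 4412 to 6735 CPM in H-CM libraries. No marker of the list was at 0 in all 8 libraries, Acta2 stood at 3692 and 2843 CPM on average, and their part in the lower level of Thbs1 was not tested.

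No glial gene passed the test. None of 11 tested genes of an enteric glial signature was called (median 0.04), and none of 16 genes of the glial lineage (median -0.05). Sox10 differed by 0.11 (-0.27 to 0.50, adjusted p = 0.997), and Gfap was at the detection limit in part of the libraries (3.61 ± 2.32 and 2.68 ± 2.93 CPM). None of 26 cell cycle genes was called (median -0.05). Markers of macrophages and other leukocytes were at a low level in both groups, 61.6 to 295 CPM summed in unstimulated and 82.7 to 272 CPM in H-CM libraries, and none of the 14 tested was called. Of 17 markers of colonic epithelium, 1 passed the filter, 4 (Tff3, Car4, Fabp2 and Reg3g) had 0 counts in all 8 libraries, and the summed level was 5.74 to 12.0 and 5.47 to 12.8 CPM. The ranges of both marker lists overlapped between the groups.

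The same genes were examined in the libraries of the other time points, which share no library with those of 12 h. At 24 h, all 49 had the same direction and 44 were called (38 of the genes that rose and all 6 that fell). Of all 12713 genes tested at 24 h, 258 were called (2.03%), 136 higher and 122 lower in H-CM. The common dispersion was 0.0455 at 24 h beside 0.122 at 12 h. The 44 genes were 89.8% of the calls at 12 h and 17.1% of those at 24 h. Of the 27 interferon-induced genes 26 were called at 24 h, of the 9 chemokine and inflammatory genes 7, and of the oxidative stress genes neither (Hmox1 0.79, adjusted p = 0.0557, and Slc7a11 0.70, adjusted p = 0.538). Of the interferon list, 22 of 29 genes were called at 24 h, Ifit1 (3.62, adjusted p = 0.00716), Ifit3 (2.85, adjusted p = 0.0120) and Irf7 (2.63, adjusted p = 0.000799) with them. In the fold changes of single genes, 42 of the 49 were smaller in size at 24 h, although these genes had been chosen by their values at 12 h.

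Whether the response differed between these times was tested with an interaction term over 16 libraries. No gene of 12732 passed the adjusted threshold with edgeR's quasi-likelihood test, with 309 at an unadjusted p under 0.05. Among the 49 genes, 5 had an unadjusted p under 0.05, namely Tlr2, Cxcl2, I830012O16Rik, Hmox1 and Slc7a11, each with a smaller effect at 24 h and none with an adjusted p under 0.05. Tlr2 differed by 1.06 at 24 h (-0.35 to 2.48, adjusted p = 0.659). The 6 h libraries were uneven in depth, with 13518 counts in H-CM replicate 4 and 256453 in unstimulated replicate 3. At 6 h no gene of 9256 was called, with a common dispersion of 0.572 beside 0.122 at 12 h, which cannot show a lack of response. There, 46 of the 49 genes were tested and 43 had the direction of 12 h, with a median of 1.19 for the genes that rose.

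**Figure D4:**
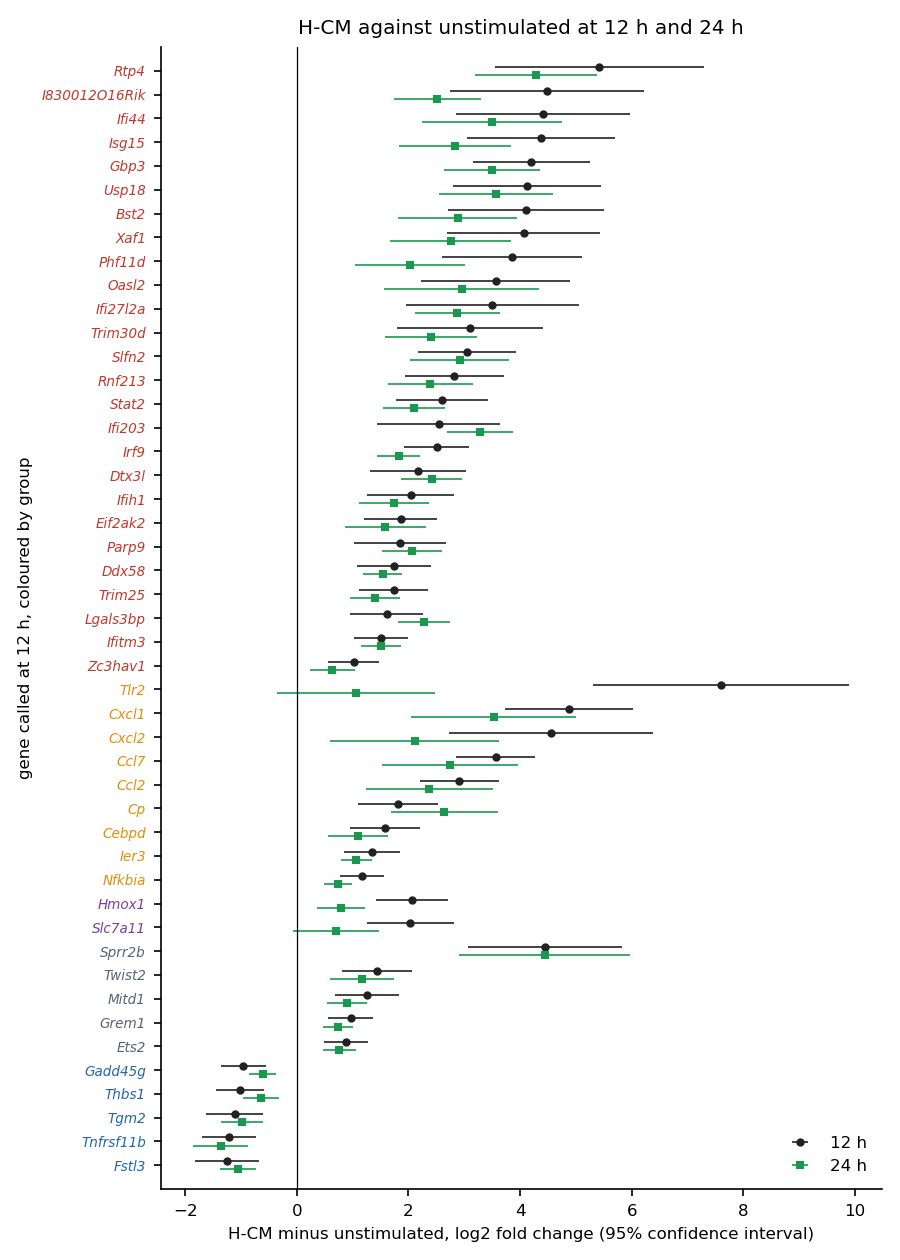
Log2 fold change of H-CM against unstimulated EGCs with its 95% confidence interval (horizontal axis) for 47 of the 49 genes called at 12 h (rows, colored by group), at 12 h (black) and 24 h (green). All 47 pairs lie on the same side of 0, and the intervals of the times overlap except for Hmox1 and Tlr2, whose fitted value at 12 h depends on the model's handling of zeros.

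To place the H-CM response beside that of tumor medium, the same genes were compared between TME-CM and H-CM EGCs of 12 h. Both comparisons use the same 4 H-CM libraries, so they are not independent. TME-CM was higher than H-CM in 14 of the 49 genes and lower in none, where 148 of 12156 genes were higher in TME-CM (1.22%). The chemokine and inflammatory genes accounted for 8 of the 14. Their median difference between the media was 2.43, beside 0.97 for the interferon-induced genes, of which 3 of 27 were called (Gbp3, Slfn2 and Ifitm3). The difference between these groups of genes was not tested.

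Cxcl1 was at 391, 238, 346 and 617 CPM in TME-CM replicates 1 to 4, 3.47 above H-CM on the log2 scale (adjusted p = 0.000159). Ccl2 was at 1313, 1097, 1691 and 2798 CPM, 2.33 above H-CM (adjusted p = 0.000644), and Ccl7 2.60 above it (adjusted p = 0.000120). Cp stood 2.83 and Cebpd 2.43 above H-CM (adjusted p = 2.67e-05 and 0.000126). In all of these the TME-CM libraries lay above every H-CM library. Of the 27 interferon-induced genes, 5 were apart in this way, where 7.29% of all genes tested did not overlap between these media in either direction. Isg15 was at 30.3, 70.8, 142 and 89.9 CPM in TME-CM (1.49 above H-CM, 95% confidence interval of the difference 0.53 to 2.45, adjusted p = 0.139), Irf9 at 83.3, 130, 119 and 113 CPM (0.48, -0.05 to 1.003, adjusted p = 0.548) and Bst2 at 78.3, 104, 172 and 135 CPM (0.05, -1.11 to 1.21, adjusted p = 0.987). Of the 6 genes that fell in H-CM, none was called between the media. The log2 difference from unstimulated EGCs was -0.41 in TME-CM and -1.02 in H-CM for Thbs1. Hmox1 was at 290 ± 187 CPM in H-CM and 214 ± 32.8 CPM in TME-CM (-0.44, adjusted p = 0.670).

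**Figure D5:**
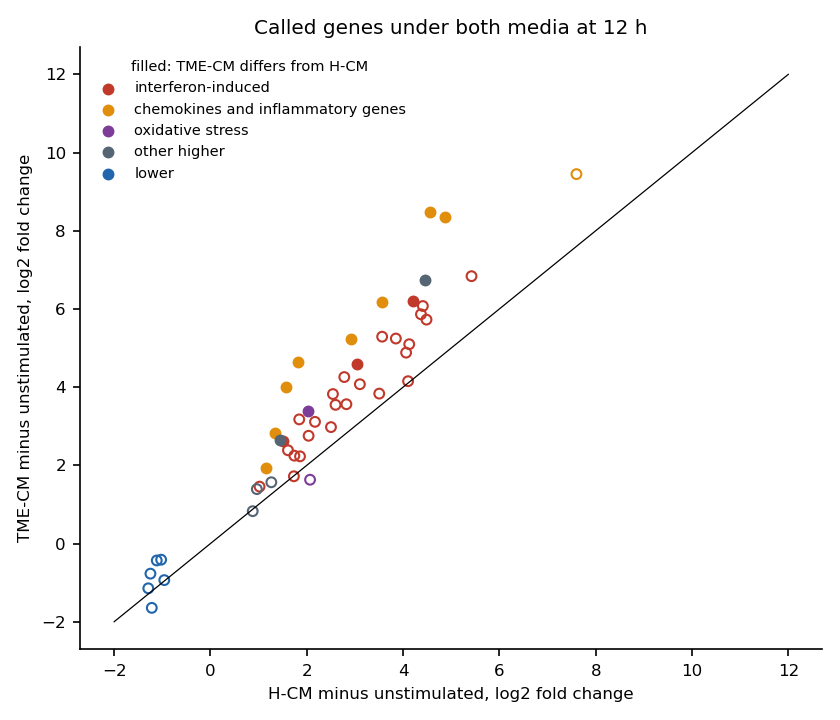
Log2 fold change against unstimulated EGCs at 12 h under H-CM (horizontal axis) and TME-CM (vertical axis) for the 49 genes called under H-CM, colored by group, with the line of equal change. Filled points are the 14 genes that differed between the media, 8 of them chemokine and inflammatory genes (orange), and both axes use the same unstimulated libraries.

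The H-CM libraries differed in the strength of the response. Replicate 1 had the highest value in 24 of the 27 interferon-induced genes and replicate 3 in the other 3, and replicate 4 had the lowest in 23. Without H-CM replicate 1, 35 genes were called, 32 of them among the 49. With single unstimulated libraries left out, 23 genes were called without replicate 1, 29 without replicate 2, 24 without replicate 3 and 29 without replicate 4. The calls of 14 genes held in each of 7 alternative fits and with each of the 12 libraries of 12 h left out in turn. These were Cxcl1, Ccl2, Ccl7, Nfkbia, Isg15, Usp18, Gbp3, Slfn2, Rnf213, Stat2, Irf9, Ifitm3, Hmox1 and Sprr2b. Tlr2 was also called with each library left out and in the 6 alternatives that tested it (it did not pass the filter in the fit of 8 libraries), and the other 34 lost the call in at least 1 setting without a change of direction.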

How the data were processed

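RNA of EGCs was profiled in 36 libraries of 9 groups, 4 per group, of which the 12 libraries of 12 h were used for the main model. The authors prepared QuantSeq 3′ libraries, filtered adapters with fastq-mcf after FastQC 0.11.7, aligned the reads to mm10 with HISAT2, handled alignments with SAMtools 1.5, dropped reads that mapped to several places and used HT-seq Count for counting. The deposited values are raw counts per gene symbol, not normalized, and all columns of the table were used or mapped. Annotation, strand setting and molecular identifiers were not given in the sources used here, so a count is taken as a read.

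The test was edgeR 4.0.16 under R 4.3.3, with limma 3.58.1 loaded: filterByExpr with a minimum count of 10, TMM factors, a robust quasi-likelihood model with 1 mean per group over the 12 libraries, and Benjamini-Hochberg adjustment over the 12156 genes tested. A gene is called at an adjusted p under 0.05. The calls of 24 h and 6 h came from the same model of those libraries, and the change of the effect from a model of 16 libraries. The common dispersion (the squared biological variation fitted over genes) came to 0.122 for 12 h, 0.0455 for 24 h and 0.572 for 6 h. Single library measures were compared by exact two-sided permutation tests. Depth of 2005239 to 5961933 counts means that 1 CPM is a few reads.

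Values in every library are given for up to 20 genes that rose by the largest changes, where H-CM reached a mean of 5 CPM or more, and for 5 genes that fell. Some genes are not reported here. The library values of Irf9, Stat2, Hmox1, Cxcl5 and Saa3 were added after they were seen. Beside called genes and those the study names, up to 4 members per list are named, called ones first and then by p. The further genes named without a call (Ifit2, Rsad2, Irf7, Cxcl12, Rela, Nfkb1, Nqo1, Nog, Ankrd1, Mmp3, Timp3, Acta2 and glial genes) were chosen for their known roles after their values were seen. The members and lists were chosen with earlier results of these data known. Positions are those of GENCODE M21 on GRCm38, the assembly also called mm10. Of the 49 genes called, 16 share exon bases with another gene, 12 of them on the opposite strand. Beside those named above, Rnf213 shares 1476, Tgm2 633 and Cebpd 562 bases on the opposite strand, and Rtp4 296 bases on the same strand. A like limit to that of Parp9 and Dtx3l holds for their counts. Older symbols were matched through RefSeq synonyms. Alternatives were DESeq2 1.42.0 size factors and its Wald test, no filter, 8 or 36 libraries fitted, the replicate number as a block, Yam1 removed and each library left out. Overlaps with 24 h under these alternatives were added after the data were seen.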

Additional observations from a re-analysis of the deposited data

Results flagged for a closer look

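In the H-CM and the unstimulated group of 12 h, each of 4 libraries, the values of 47 called genes, of 6 further genes the study names and of 5 measures of the libraries were examined for a library far from the other 3 by Dixon's test of the gap to the nearest value. Of 116 groups, 10 held such a library (8.62%). The cut-off gives about 1 in 20 for independent, normally distributed values. These genes share the same libraries and are not independent, so the share cannot be set against that rate.

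H-CM replicate 1 stood apart in 7 genes, each time as the highest. Rnf213 was at 89.66 CPM there, beside 25.4 to 28.4 CPM in the other H-CM libraries, and Sprr2b at 54.18 CPM, beside 12.0 to 18.1. I830012O16Rik was at 49.23 CPM, beside 6.06 to 13.3, and Trim30d at 25.58 CPM, beside 5.76 to 9.03. Lgals3bp was at 190.6 CPM, beside 69.2 to 89.8. Of the genes not called, Lcn2 was at 40.98 CPM, beside 5.32 to 9.32, and Timp1 at 210.4 CPM, beside 93.4 to 105.

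Without this library the log2 fold change of Rnf213 was 2.18 (adjusted p = 0.00131, edgeR), of Sprr2b 3.69 (0.00022) and of I830012O16Rik 3.56 (0.0068), all still called. Trim30d (2.48, adjusted p = 0.120) and Lgals3bp (1.17, adjusted p = 0.0510) lost the call. Lcn2 then differed by 1.51 (adjusted p = 0.0815).

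Among the unstimulated libraries, Ifih1 was lowest in replicate 1 at 2.103 CPM, beside 4.65 to 5.14, and without it the log2 fold change was 1.88 (adjusted p = 0.0523). Lgals3bp was highest in replicate 2 at 53.9 CPM, beside 26.5 to 30.1, and kept its call without that library (1.89, adjusted p = 0.0122). The share of mitochondrial counts was 6.875% in H-CM replicate 3, beside 3.10% to 3.51% in the other H-CM libraries.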

How the results depend on the processing

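With DESeq2's size factors 49 genes were called, and with Yam1 removed 51, the 49 included in both. Without the filter on low counts 168 were called (119 higher, 49 lower) and with DESeq2's Wald test 98 (79 higher, 19 lower), again with the 49 included. A fit of only the 8 libraries compared called 28 (26 higher, 2 lower), and 1 model of all 36 libraries called 35 (34 higher, 1 lower). With each library of 12 h left out in turn, the counts ranged from 23 to 57 in all, 20 to 53 higher and 1 to 7 lower, and leaving out any unstimulated library lowered the total by over 1.5 times. The genes called at 12 h and 24 h alike numbered 114 without the filter, 80 with DESeq2 and 24 with 8 libraries, against 44. Without the filter and with DESeq2, Lcn2 and Cxcl10 were called as well, and Cxcl10 also without TME-CM replicate 1. No called gene changed direction in any of these settings. Differences of uncalled genes turned sign with single libraries left out, over -0.40 to 0.0748 for Timp1, -0.67 to 1.12 for Il6, -0.20 to 0.20 for Ntsr1 and -0.18 to 0.0611 for Sparcl1. Why calls were lost in some of these settings was not tested.

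The replicate numbers were not taken to pair the samples. Unstimulated and H-CM libraries of the same number correlated by 0.00921, -0.0235, -0.0427 and 0.229 in their deviations from the group means. The largest value with another number was 0.045, 0.0915, 0.0417 and 0.0509 in that order. Summed macrophage and leukocyte markers were higher in replicates 1 and 2 than in 3 and 4. They were at 202, 295, 94.3 and 61.6 CPM in unstimulated and 257, 272, 150 and 82.7 CPM in H-CM libraries, and likewise ordered in TME-CM. Whether libraries of one number shared a culture was not tested. With the replicate block 40 genes were called (36 higher, 4 lower), 37 of them among the 49, and 35 were also called at 24 h. The 14 genes higher in TME-CM than in H-CM and the count of 0 for the change from 12 h to 24 h were the same with the block and with DESeq2's size factors. Depth limits statements on genes under about 1 CPM, the interferon genes and Il6 among them, and the libraries of 6 h.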

Other observations

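Of the metalloproteinases and their inhibitors, none was called at 12 h, while 3 were called higher and 1 lower at 24 h. Of all 12713 genes tested at 24 h, 258 were called (2.03%). None of 16 metalloproteinase and TIMP genes tested was called at 12 h, with a median log2 difference of 0.33 beside -8.91e-05 over all genes. Mmp13, a collagenase, was at 4.70 CPM in unstimulated and 18.5 CPM in H-CM EGCs on average (2.01, adjusted p = 0.0687, edgeR), and Mmp10 at 124 and 310 CPM (1.32, adjusted p = 0.120). At 24 h Mmp13 differed by 2.23 (adjusted p = 0.00293), Mmp10 by 0.85 (adjusted p = 0.00249) and Mmp3 by 2.93 (adjusted p = 0.0111), and the inhibitor gene Timp3 by -0.61 (adjusted p = 0.00864). Mmp3 had stood at 8.62 and 36.6 CPM at 12 h (1.99, adjusted p = 0.879). In the model of both times no gene passed the test of a difference between them, with 309 at an unadjusted p under 0.05 (edgeR).

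Genes of sterol synthesis and uptake had a small and common positive difference. None of 21 was called at 12 h, with a median of 0.27, but their summed level was 998 to 1068 CPM in unstimulated and 1167 to 1309 CPM in H-CM libraries, so that the groups did not overlap. This was not particular to sterol genes. The sums of other lists without marked changes, such as glucocorticoid targets (1246 to 1289 and 1314 to 1587 CPM), did not overlap either. Of the 21 single sterol genes, 2 lay apart between the groups, where 479 of all 12156 genes tested did (3.94%). At 24 h the median was 0.02, again with none called. The smooth muscle markers, with none called at 12 h, had 9 of 11 called lower at 24 h, where 122 of all 12713 genes tested were called lower. Acta2, smooth muscle actin, differed by -0.38 at 12 h (adjusted p = 0.686) and by -1.12 at 24 h (adjusted p = 6.26e-05).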
